A study of Mus musculus with 23 samples.

Results

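The genes described here encode the subunits of the mTOR complexes and their closest effectors in the mouse intestinal epithelium: Rptor, Mtor, Mlst8, Akt1s1, Deptor, Rictor, Rheb, Rps6kb1, Eif4ebp1 and Eif4ebp2. They were listed by name, with earlier results of these data known. All 10 were present among the 22350 genes of the RNA-seq reference, the 22230 of the organoid Ribo-seq reference and the 22314 of the in vivo Ribo-seq reference, and all 10 passed the filter on low counts in each of the 6 comparisons made. mTOR is a serine/threonine kinase that works in a pair of complexes. In mTORC1 it binds Raptor, which brings in the substrates. In mTORC2 it binds Rictor instead. mTORC1 senses amino acids and growth factors at the lysosome and drives protein synthesis, mainly by phosphorylating the S6 kinases and the 4E-BPs, and in the intestine it is known for its role in crypt proliferation and regeneration.

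The study compared small intestinal organoids, which are epithelial cultures grown from crypts, and the ribosomes of intestinal cells in mice (C57BL/6), with and without a floxed Rptor gene. RNA-seq covered WT organoids labelled VillinCre.ERT2.RPL22.HA (4 libraries), organoids labelled VillinCre.ERT2.Rptor.fl/fl (4 libraries) and stem cell enriched (SCe) organoids, which were VillinCre.ERT2.RPL22.HA cultures kept in CHIR99021 (10 µM) and valproic acid (1.5 mM) (3 libraries). Ribo-seq, which sequences the mRNA fragments covered by ribosomes, covered VillinCre.ERT2.Rptor.fl/fl.RPL22.HA organoids (3 libraries), SCe organoids as above (3 libraries), and mice labelled Lgr5Cre.ERT2.RPL22.HA (WT, 3 libraries) or, with the floxed gene, Lgr5Cre.ERT2.Rptor.fl/fl.RPL22.HA (3 libraries). The Villin promoter directs the tamoxifen-dependent Cre to the whole intestinal epithelium and the Lgr5 promoter directs it to stem cells, and the HA tag on the ribosomal protein RPL22 allows ribosomes to be pulled down. The labels call all of these samples other than the SCe cultures untreated, whereas the methods describe induction with tamoxifen. By the methods the Lgr5Cre mice had a single injection and were sampled a day later, sooner than the VillinCre animals. Animals of both sexes, 8 to 12 weeks old, were used. The Rptor fl/fl organoids of the RNA-seq carry no RPL22.HA in their label, unlike those of the Ribo-seq, so the RNA and footprint values of this group come from differently labelled genotypes. The WT and SCe organoids of the RNA-seq do carry it, so in RNA the floxed gene and the tag cannot be told apart.

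WT and Rptor fl/fl RNA-seq came from 2 organoid lines per group with 2 technical libraries per line, which were summed, so that n = 2 lines there and n = 3 libraries in the other groups. The study describes the mice, and the lines behind the WT and Rptor fl/fl RNA-seq, as biological replicates. For the other organoid libraries the sources used here do not say that the cultures came from separate animals, and p-values then measure only the spread between these samples, which may be technical. RNA-seq libraries held 23802944 to 67598878 estimated reads. Ribo-seq libraries were shallower, with 5992941 to 8257457 in Rptor fl/fl organoids, 1106178 to 4242425 in SCe organoids, 772077 to 5337092 in WT mice and 3085617 to 8238388 in Rptor fl/fl mice. The 7 epithelial markers checked (Epcam, Vil1, Cdh1, Krt8, Krt18, Krt19 and Cdx2) were above 1 CPM (read counts scaled to a common library size, with TMM factors) in every group. In RNA-seq the 5 stem cell markers (Lgr5, Olfm4, Ascl2, Smoc2 and Axin2) summed to 3561 to 5127 CPM in WT, 803 to 2042 in Rptor fl/fl and 826 to 1606 in SCe organoids. In organoid Ribo-seq the same sum was 4997 to 5329 in Rptor fl/fl and 1551 to 3050 in SCe libraries. In the mouse libraries it was 552 to 579 in WT and 348 to 531 in Rptor fl/fl, beside 33773 to 34366 and 38039 to 41547 for the 5 enterocyte markers. Over both genotypes the 5 smooth muscle markers summed to 1217 to 1431 CPM and the 5 immune markers to 3360 to 3776. Markers of cells other than Lgr5-positive stem cells were thus at high levels in the mouse footprints. In such bulk samples fewer cells of a type and less RNA per cell cannot be told apart.

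The genes are placed on the mm10 genome by GENCODE vM21. Rptor (ENSMUSG00000025583.15, chr11:119602905-119899576, plus strand) encodes Raptor, the subunit that defines mTORC1. Mtor (ENSMUSG00000028991.15, chr4:148448611-148557683, plus strand) encodes the kinase and Mlst8 (ENSMUSG00000024142.15, chr17:24473551-24479078, minus strand) a subunit shared by both complexes. Akt1s1 (ENSMUSG00000011096.17, chr7:44848991-44855421, plus strand) encodes PRAS40, an inhibitor and substrate of mTORC1. Deptor (ENSMUSG00000022419.16, chr15:55112317-55259271, plus strand) encodes an inhibitor that binds mTOR in both complexes. Rictor (ENSMUSG00000050310.9, chr15:6708379-6800401, plus strand) encodes the subunit that defines mTORC2. Rheb (ENSMUSG00000028945.9, chr5:24802823-24842624, minus strand) encodes the small GTPase that activates mTORC1 at the lysosome. Rps6kb1 (ENSMUSG00000020516.15, chr11:86498871-86544805, minus strand) encodes the kinase S6K1. Eif4ebp1 (ENSMUSG00000031490.6, chr8:27260329-27276674, plus strand) and Eif4ebp2 (ENSMUSG00000020091.15, chr10:61428491-61452661, minus strand) encode 4E-BP1 and 4E-BP2, which hold back cap-dependent translation by binding eIF4E until mTORC1 phosphorylates them.

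Nearly all Rptor RNA reads were assigned to a pair of transcripts. Rptor-201 is protein coding, with 34 exons and 6594 bases, and Rptor-211 is annotated as a target of nonsense-mediated decay, the pathway that removes mRNAs with an early stop codon, with 33 exons and 6138 bases. Rptor-211 lacks exon 10 of Rptor-201, which lies at chr11:119811945-119812020 and has 76 bases, a length that is not a multiple of 3. The forms also begin and end at different positions, but it is at exon 10 that the shared inner part of the mRNA differs, so the splice junctions there are shown. They were read from the GENCODE vM21 transcripts (mm10, plus strand), with 15 bases on each side and the downstream exon in capitals.
Rptor-201, exon 9 to exon 10: catgcatgccatgtgGCAGGCCTGGGACCT
Rptor-201, exon 10 to exon 11: ggtactgccttcaggCACAGCCCATTCTTT
Rptor-211, exon 9 to the exon numbered 11 in Rptor-201: catgcatgccatgtgCACAGCCCATTCTTT

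Salmon, the program the authors used, divides reads between such overlapping transcripts, and the shares below are its estimates. Rptor-211 took 30.8% and 24.5% of Rptor reads in the technical libraries of WT line 1, and 38.4% and 21.7% in those of WT line 2. For Rptor fl/fl it took 36.1% and 43.8% in line 1, and 52.1% and 21.9% in line 2. In the SCe libraries it took 28.5%, 46.2% and 27.1%. The ranges of the 3 groups overlapped, and technical libraries of a single line lay as far apart as libraries of different groups. Summed by line, Rptor-201 held 1942 and 1616 reads in WT and 443 and 542 reads in Rptor fl/fl organoids, and Rptor-211 held 762 and 722 reads and 304 and 322 reads. Both forms were thus lower in each Rptor fl/fl line, without a test of either form. The coding sequence of Rptor-211 is short, at 1210 bases in the organoid Ribo-seq reference against 4054 bases for Rptor-201. In organoid footprints Rptor-211 was given 30.5%, 45.3% and 31.5% in Rptor fl/fl and 61.9%, 25.6% and 22.3% in SCe libraries, on 12.5 to 53.5 reads. In mice it was given 0%, 0% and 9.2% in WT and 14.5%, 11.4% and 10.3% in Rptor fl/fl libraries, on at most 30.2 reads. Which exons the floxed allele removes is not given in the sources used here, and reads from exons that remain after recombination still count towards Rptor.

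**Figure D1:**
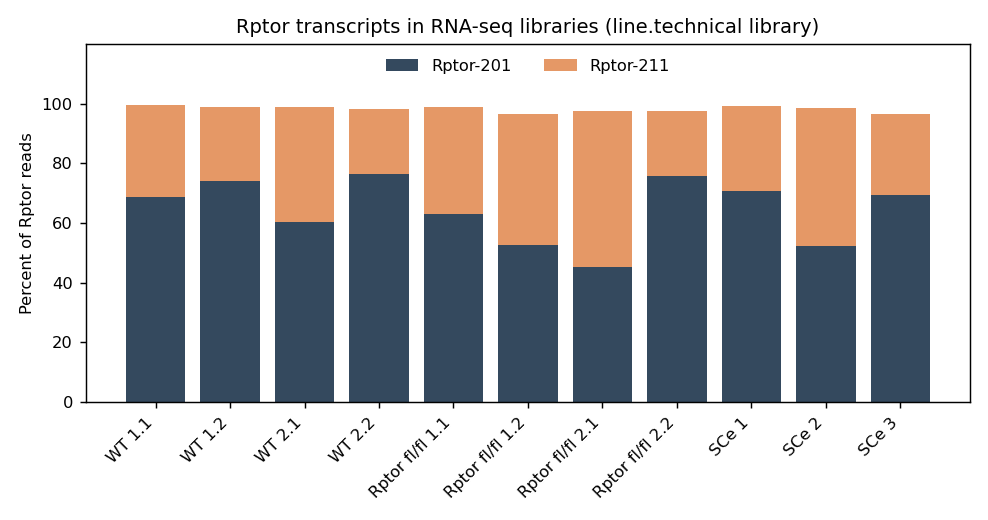
Percent of Rptor reads (vertical axis) assigned to Rptor-201 (dark) and Rptor-211 (light) in each RNA-seq library (horizontal axis, numbered by line and technical library). The share of Rptor-211 varied from 21.7% to 52.1% between libraries, with the groups overlapping.

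Per length, the 4E-BPs, Rheb and Akt1s1 were the most abundant of these mRNAs and the large subunits the least. In WT organoids the deposited TPM (reads divided by length and scaled to a common total) was 76.7 ± 2.35 (SD, n = 2) for Eif4ebp2, 51.0 ± 1.91 for Akt1s1, 40.7 ± 0.41 for Rheb, 35.5 ± 6.10 for Eif4ebp1 and 31.4 ± 0.37 for Deptor. It was 22.8 ± 1.62 for Rps6kb1, 18.2 ± 0.82 for Mlst8, 11.7 ± 1.26 for Mtor, 10.6 ± 0.14 for Rptor and 9.47 ± 0.95 for Rictor. Neighbours in this order had separate ranges over the lines except Eif4ebp1 and Deptor. In WT organoids the mRNAs of the large subunits Mtor, Rptor and Rictor were thus within a narrow range of TPM. In Rptor fl/fl organoids Rptor moved to the last place at 3.62 ± 0.23 TPM (n = 2), below Rictor at 11.9 ± 0.78, and Eif4ebp1 moved from the fourth to the sixth place at 21.2 ± 1.87. In SCe organoids (n = 3) Eif4ebp2 was again first at 79.0 ± 18.0 TPM and Rictor last at 7.79 ± 1.19, with Rptor at 12.5 ± 2.16 between Mtor and Mlst8, whose ranges it overlapped.

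Footprint TPM gave another order at its top. In organoid Ribo-seq Eif4ebp1 was first by its mean, at 47.0 ± 3.54 TPM in Rptor fl/fl and 43.6 ± 14.8 in SCe libraries (n = 3 each). Eif4ebp2 followed at 24.6 ± 3.22 and 37.8 ± 18.4, and in SCe libraries the ranges of the 4E-BP genes overlapped. Rptor at 1.64 ± 0.42 and 1.72 ± 0.82 and Rictor at 1.11 ± 0.15 and 0.724 ± 0.32 were the lowest in both groups, and their ranges overlapped. In mice Eif4ebp2 was first by its mean at 39.9 ± 12.2 TPM in WT and 44.1 ± 1.04 in Rptor fl/fl libraries, and Rictor was last at 3.18 ± 0.55 and 3.06 ± 0.71 (n = 3 each). In WT mice the range of Eif4ebp2 overlapped that of Rheb. Rptor lay in the sixth place in WT mice at 10.9 ± 7.70 TPM, overlapping its neighbours, and in the seventh in Rptor fl/fl mice at 6.95 ± 0.79, where it overlapped Mtor below it but not Mlst8 above it. The deposited effective lengths of the short coding sequences are much below their annotated lengths, which raises the TPM of both 4E-BP genes. With CPM per kilobase of annotated length instead, 3 of the 10 genes kept their place in each mouse group and 5 in Rptor fl/fl organoid footprints, against 8 or more in every other group. Rheb was then first in both mouse groups.

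Rptor fl/fl organoids had less RNA of Rptor, of Eif4ebp1 and, to a small extent, of Rps6kb1 than WT organoids, and more of Mtor. The comparison was meant to address what the loss of mTORC1 does to organoid RNA, and Rptor serves as the check of the label. By their labels the groups also differ in RPL22.HA, which cannot be told apart from the floxed gene here. Rptor was at 51.5 and 47.9 CPM in WT and reached only 14.8 and 15.5 CPM in Rptor fl/fl lines. The groups lay far apart, and the fit gave a log2 fold change of -1.71 ± 0.08 (SE), that is 3.28-fold lower (95% interval of the log2 value -1.93 to -1.50, edgeR quasi-likelihood test, adjusted p = 0.00516). Rptor RNA was not absent, since the Rptor fl/fl lines still held 764 and 886 Rptor reads. Of the 14131 genes tested, 11.6% were higher in Rptor fl/fl organoids and 11.0% were lower, and of the 10 mTOR genes 1 was higher and 3 were lower. Their median log2 fold change was 0.04, against -0.00 over all genes tested. Marker sums also differed between these groups. Beside the stem cell markers given above, the 4 Paneth cell markers summed to 3935 to 4723 CPM in WT and 709 to 1508 in Rptor fl/fl lines, and the 4 goblet cell markers to 451 to 557 and 732 to 992. Their part in the values of the mTOR genes was not tested.

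Eif4ebp1 was at 56.0 and 44.3 CPM in WT and at 28.4 and 26.4 CPM in Rptor fl/fl lines. It fell 1.83-fold (log2 fold change -0.87 ± 0.13, edgeR adjusted p = 0.0193). Its paralogue Eif4ebp2 was at 301 and 296 CPM in WT and 344 and 322 in Rptor fl/fl lines, and this difference of 0.16 ± 0.07 did not pass (edgeR adjusted p = 0.154). The 95% intervals of the 4E-BP genes did not meet, that of Eif4ebp2 running from -0.02 to 0.33 and that of Eif4ebp1 from -1.22 to -0.53. Rps6kb1 was at 85.1 and 85.9 CPM in WT and 74.3 and 70.9 in Rptor fl/fl lines and was lower (log2 fold change -0.24 ± 0.05, edgeR adjusted p = 0.0404). Rps6kb1 RNA was thus lower in both Rptor fl/fl lines, by a small margin.

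Mtor was at 67.2 and 63.2 CPM in WT and at 87.4 and 82.3 CPM in Rptor fl/fl lines. It rose (log2 fold change 0.38 ± 0.06, edgeR adjusted p = 0.0223). Rictor was at 73.8 and 65.1 CPM against 81.7 and 78.6 (0.21 ± 0.08, edgeR adjusted p = 0.123), and Deptor at 204 and 212 against 219 and 234 (0.12 ± 0.07, edgeR adjusted p = 0.243). Both were higher in each Rptor fl/fl line than in either WT line, without passing the test. How many of all genes were separated by line in this way was not counted. Mlst8 (37.4 and 40.1 against 38.8 and 40.8 CPM), Akt1s1 (43.0 and 43.8 against 39.2 and 43.6) and Rheb (49.9 and 51.3 against 53.5 and 50.3) overlapped between the groups. Their 95% intervals ran from -0.28 to 0.24 on the log2 scale at the widest, so a change of Mlst8, Akt1s1 or Rheb as large as that of Eif4ebp1 lay outside them. Only Rptor kept its call under all 12 alternatives, and without any 1 of the 4 lines the called genes were Rptor and Eif4ebp1 (WT line 1 or 2 left out), Rptor alone (Rptor fl/fl line 1) or Rptor and Mtor (Rptor fl/fl line 2). With all RNA-seq groups in 1 fit Rptor alone was called, and the edgeR adjusted p of Eif4ebp1 was 0.160.

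**Figure D2:**
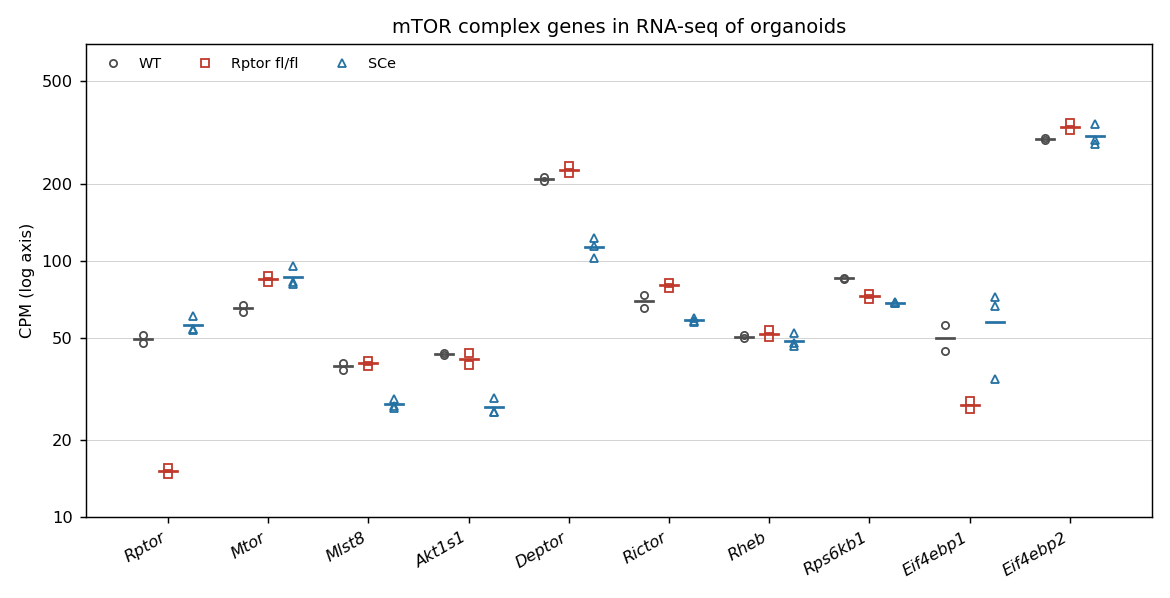
CPM (vertical log axis) of the 10 genes (horizontal axis) in RNA of the WT, SCe and Rptor fl/fl organoids, with 1 point per line or library and bars at the means. Rptor was at 14.8 to 15.5 CPM in Rptor fl/fl and 47.9 to 60.8 CPM in the other organoids, and Deptor was at 102 to 122 CPM in SCe and 204 to 234 CPM in the other organoids.

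Against SCe organoids, Rptor fl/fl organoids had less Rptor and more Deptor, Akt1s1, Mlst8 and Rictor RNA. SCe organoids in turn had less Deptor, Akt1s1, Mlst8 and Rps6kb1 and more Mtor than WT. These contrasts ask how the Rptor fl/fl cultures differ from cultures that the study describes as enriched for adult stem cells. They share groups with each other and with the comparison above. The 5 stem cell markers summed lower in SCe (826 to 1606 CPM) than in WT organoids (3561 to 5127). They overlapped those of Rptor fl/fl organoids (803 to 2042), so this sum did not show the enrichment. The most abundant markers weigh most in such a sum, and single markers were not compared here. The study itself measured single stem cell and differentiation genes of SCe organoids by RT-qPCR, relative to WT. Over all genes, 21.0% of the 15086 tested were higher and 21.8% lower in Rptor fl/fl than in SCe organoids, and of the mTOR genes 4 were higher and 1 was lower (median log2 fold change 0.11, against -0.01 over all genes). Between SCe and WT organoids 22.4% of 14925 genes were higher and 19.9% lower in SCe, and of the mTOR genes 1 was higher and 4 were lower (median -0.13, against 0.02). The SCe libraries also had 4337 to 4753 CPM of the summed epithelial markers against 7880 to 8463 in the other organoids. Goblet cell markers summed to 46.6 to 141 CPM against 451 to 992. Enterocyte markers summed to 96.6 to 3834 CPM in SCe, 4605 to 4742 in WT and 3568 to 5729 in Rptor fl/fl organoids. Paneth cell markers summed to 363 to 3045 CPM in SCe libraries, so both of these sums were uneven between them. The part of the marker sums in these differences was not tested.

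Deptor was at 102, 122 and 114 CPM in SCe libraries, about as far below both WT lines (204 and 212) as below both Rptor fl/fl lines (219 and 234). Its RNA was 2.01-fold higher in Rptor fl/fl than in SCe organoids (log2 fold change 1.01 ± 0.10, edgeR adjusted p = 0.00228) and 1.82-fold lower in SCe than in WT organoids (-0.86 ± 0.09, edgeR adjusted p = 0.00337). Akt1s1, at 29.2, 25.6 and 25.6 CPM in SCe libraries, had log2 fold changes of 0.63 ± 0.10 (edgeR adjusted p = 0.00764) and -0.67 ± 0.09 (edgeR adjusted p = 0.00464) in the same contrasts. The RNAs of both mTORC1 inhibitors were thus lowest in SCe organoids, with no overlap with another RNA-seq group. The same held for Mlst8, Rictor and Rps6kb1, so this was not particular to the inhibitors. How many of all genes were lowest in SCe organoids in this way was not counted. Mlst8, at 26.7, 29.0 and 27.2 CPM in SCe libraries, differed by 0.53 ± 0.08 (edgeR adjusted p = 0.0065) and -0.46 ± 0.08 (edgeR adjusted p = 0.0097). Rictor, at 58.5, 59.9 and 57.7 CPM, was 1.37-fold lower in SCe than in Rptor fl/fl organoids (0.45 ± 0.07, edgeR adjusted p = 0.00583), and its difference from WT did not pass (-0.22 ± 0.08, edgeR adjusted p = 0.0738).

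Rptor was at 60.8, 54.0 and 53.7 CPM in SCe libraries. It was 3.70-fold lower in Rptor fl/fl organoids (log2 fold change -1.89 ± 0.10, edgeR adjusted p = 0.00105), while SCe and WT did not differ past the threshold (0.20 ± 0.09, interval -0.02 to 0.42, edgeR adjusted p = 0.125). Mtor was at 95.3, 81.2 and 82.8 CPM in SCe libraries, above WT (0.43 ± 0.09, edgeR adjusted p = 0.0198) and overlapping the Rptor fl/fl lines at 87.4 and 82.3 CPM (-0.02 ± 0.10, interval -0.27 to 0.22). The higher Mtor RNA was therefore seen in both kinds of organoid that were compared with WT. Both contrasts used the same WT lines, so they are not separate observations. Rps6kb1 was at 68.5, 68.7 and 69.1 CPM, lower than WT (-0.29 ± 0.05, edgeR adjusted p = 0.0125) and not separated from Rptor fl/fl organoids by the test (0.08 ± 0.06, edgeR adjusted p = 0.354).

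Eif4ebp1 was uneven between SCe libraries, at 34.5, 66.9 and 72.3 CPM. Library 1 lay below both WT lines and the others above them. The difference between Rptor fl/fl and SCe organoids was -1.08 ± 0.33 (interval -1.93 to -0.22) and missed the threshold (edgeR adjusted p = 0.0518), whereas without SCe library 1 it was -1.34 with an edgeR adjusted p of 0.000221. Eif4ebp2 (340.5, 295 and 285 CPM in SCe libraries) and Rheb (46.4, 47.8 and 52.4) overlapped the other groups, with no call in either contrast. Rptor and Deptor kept their calls against Rptor fl/fl, and Deptor and Akt1s1 those of SCe against WT, under all 13 alternatives. When WT line 1 or 2 was left out, Mtor, Mlst8 and Rps6kb1 lost their call between SCe and WT, and without Rptor fl/fl line 2 Mlst8 and Akt1s1 lost theirs between Rptor fl/fl and SCe.

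Among ribosome footprints of organoids, the libraries labelled Rptor fl/fl had more Deptor and less Eif4ebp2 than SCe libraries, and Rptor itself was not called. Counts per gene were low, from 102 to 842 reads in Rptor fl/fl and from 19 to 364 reads in SCe libraries. Of the 10817 genes tested 6.63% were higher and 9.84% lower, and of the mTOR genes 1 was higher and 1 was lower (median log2 fold change 0.04, against -0.02 over all genes). There were no footprints of untreated WT organoids among these libraries, so the contrast cannot separate genotype from the SCe culture. The summed stem cell and epithelial markers, given above for the stem cells and at 15382 to 15497 against 7247 to 10562 CPM for the epithelium, also differed between these groups. So did those of enterocytes (4106 to 4369 against 442 to 1963), Paneth cells (4334 to 5625 against 1975 to 3013) and goblet cells (946 to 1452 against 228 to 484), and their part was not tested.

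Deptor footprints were at 102, 103 and 102 CPM in Rptor fl/fl and 48.8, 49.6 and 64.8 CPM in SCe libraries. The groups did not overlap, and the log2 fold change was 0.90 ± 0.17 (1.86-fold, interval 0.50 to 1.29, edgeR adjusted p = 0.0101). Eif4ebp2 was at 23.3, 32.4 and 27.4 CPM in Rptor fl/fl and 41.2, 50.5 and 46.3 in SCe libraries, 1.66-fold lower (-0.73 ± 0.20, interval -1.19 to -0.27, edgeR adjusted p = 0.0412). The RNA difference of Eif4ebp2 in the contrast of the same groups was 0.12 ± 0.11 and did not pass (edgeR adjusted p = 0.400). Without Rptor fl/fl library 2 or 3 neither gene passed, and Eif4ebp2 was called under 4 of 12 alternatives and Deptor under 10.

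Rptor footprints were at 17.3, 18.7 and 16.0 CPM in Rptor fl/fl and 15.2, 41.9 and 21.0 CPM in SCe libraries, from 104 to 131 reads and 28 to 91 reads. The groups overlapped because SCe library 1 was low. The log2 fold change was -0.53 ± 0.34 (interval -1.29 to 0.23, edgeR adjusted p = 0.318), and without SCe library 2 it was -0.09. The interval does not reach the RNA value of -1.89 between the same kinds of culture. Rictor was at 39.1, 34.3 and 41.3 against 27.7, 28.2 and 27.1 CPM, without overlap, at 0.47 ± 0.18 (edgeR adjusted p = 0.116). Mtor (71.6, 71.3 and 69.4 against 50.5, 77.0 and 84.2 CPM), Mlst8 (21.4, 16.2 and 26.7 against 17.4, 16.3 and 16.2), Akt1s1 (31.1, 33.2 and 29.2 against 39.1, 38.5 and 14.8) and Rheb (47.9, 46.7 and 57.4 against 75.4, 34.2 and 66.8) overlapped between the groups. So did Rps6kb1 (31.2, 35.9 and 33.4 against 29.3, 22.2 and 32.1) and Eif4ebp1 (52.2, 53.4 and 44.3 against 70.0, 44.5 and 48.6). The intervals of these 6 genes reached from -0.85 to 0.93 at the widest.

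Translation efficiency is the footprint change of a gene relative to its RNA change, tested as the interaction of assay and group. Of 10747 genes 1.12% were higher and 1.81% lower in Rptor fl/fl than in SCe organoids, and 0 of the 10 mTOR genes passed by edgeR, with 3 at an unadjusted p below 0.05 and 2 called by DESeq2 (median log2 change 0.01, against -0.03). The 3 genes with the largest changes were Rptor, Eif4ebp1 and Eif4ebp2. Rptor was at 1.43 ± 0.39 (interval 0.57 to 2.29, edgeR adjusted p = 0.0777), since its RNA differed between the groups by more than its footprints did. Eif4ebp1 was at 1.01 ± 0.40 (interval 0.13 to 1.90, edgeR adjusted p = 0.189) and Eif4ebp2 at -0.79 ± 0.21 (interval -1.26 to -0.32, edgeR adjusted p = 0.0732). Without SCe Ribo-seq library 2 Rptor was at 1.85 (edgeR adjusted p = 0.0089). DESeq2 called Rptor (adjusted p = 0.00374) and Eif4ebp2 (adjusted p = 0.00335), while over all alternatives the adjusted p of Rptor ran from 0.00374 to 0.482 and that of Eif4ebp2 from 0.00335 to 0.28. The other 7 genes had log2 changes between -0.48 and 0.21, of which the largest was that of Akt1s1 (-0.48 ± 0.41, interval -1.39 to 0.43).

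**Figure D3:**
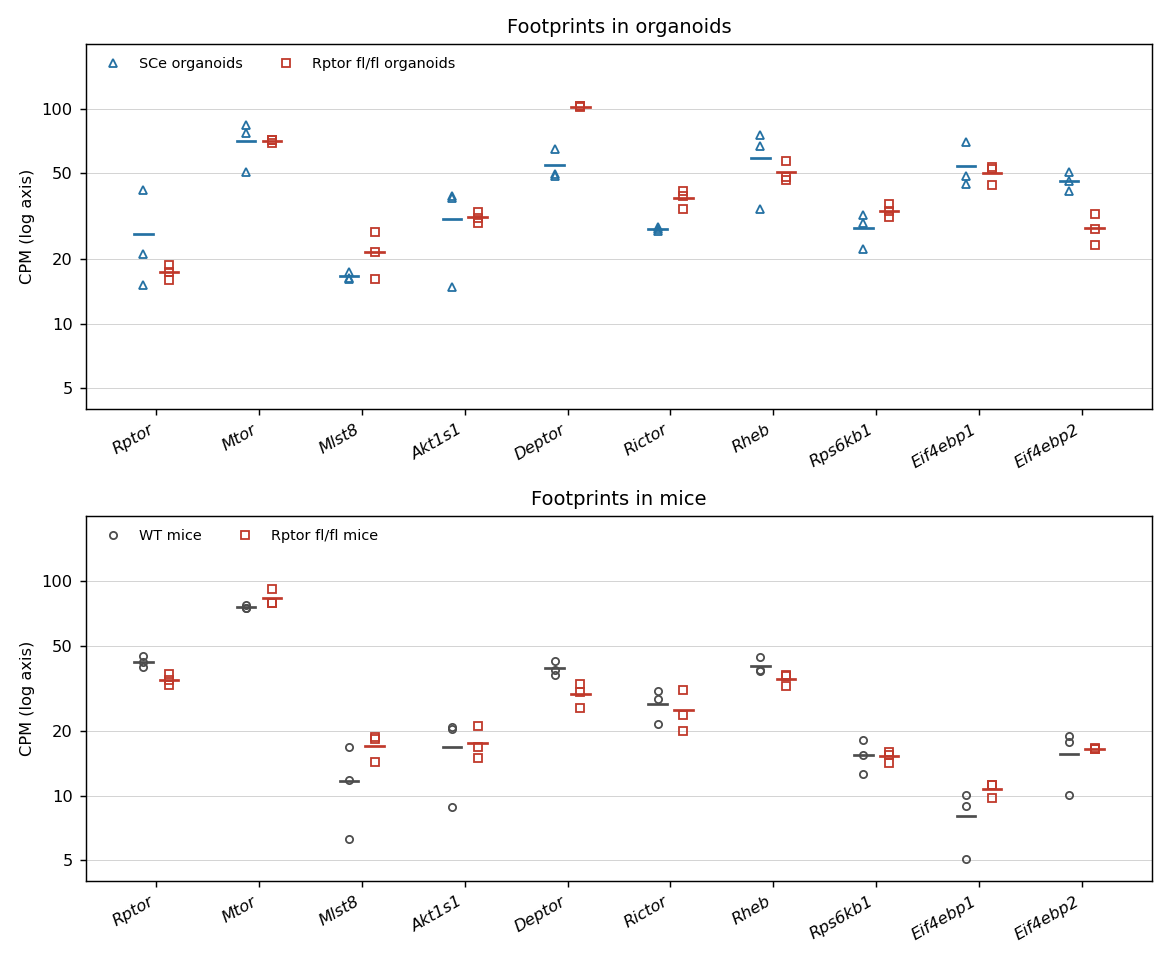
CPM of footprints (vertical log axis) of the 10 genes (horizontal axis) in Rptor fl/fl and SCe organoids and in WT and Rptor fl/fl mice, with 1 point per library and bars at the means. In organoids Deptor was at 102 to 103 CPM in Rptor fl/fl and 48.8 to 64.8 in SCe libraries, and in mice Rptor was at 32.6 to 36.9 CPM in Rptor fl/fl and 39.7 to 44.7 in WT libraries.

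In mice, sampled a day after tamoxifen by the methods, no mTOR gene passed the test between the genotypes. Later times were not measured. Footprints of Rptor, Deptor and Rheb were lower, and those of Mtor higher, in each Rptor fl/fl mouse than in each WT mouse. How many of all genes were separated in this way was not counted, so no result is read from it. Of the 11515 genes tested 7.47% were higher and 5.97% lower in Rptor fl/fl mice, and 0 of the 10 mTOR genes were called by edgeR or by DESeq2, with 2 at an unadjusted p below 0.05 by edgeR (median log2 fold change -0.09, against -0.02). Rptor was at 41.7, 39.7 and 44.7 CPM in WT and at 32.6, 34.4 and 36.9 CPM in Rptor fl/fl mice. Each Rptor fl/fl mouse was below each WT mouse, and the log2 fold change was -0.28 ± 0.12 (interval -0.55 to -0.02, edgeR adjusted p = 0.150). Deptor was at 36.7, 38.4 and 42.4 CPM in WT and 25.7, 30.4 and 33.1 in Rptor fl/fl mice (-0.41 ± 0.14, interval -0.70 to -0.11, edgeR adjusted p = 0.0636), again without overlap. The direction for Deptor turned when 1 transcript per gene was counted (0.22), and Deptor-202 was given 48.2% ± 43.3 (SD, n = 3) of its footprints in WT and 81.0% ± 27.0 in Rptor fl/fl mice.

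Mtor was at 77.1, 74.9 and 74.5 CPM in WT and 78.7, 91.6 and 79.0 in Rptor fl/fl mice (0.14 ± 0.10, edgeR adjusted p = 0.397). Rheb was at 44.2, 37.9 and 38.5 against 35.9, 32.3 and 36.5 CPM (-0.16 ± 0.13, edgeR adjusted p = 0.452). Both were separated by narrow gaps that the test did not call. Rictor (21.5, 30.6 and 28.1 against 31.0, 20.1 and 23.7 CPM), Mlst8 (6.32, 11.9 and 16.8 against 18.8, 14.3 and 18.3) and Akt1s1 (8.85, 20.5 and 21.0 against 16.8, 14.9 and 21.2) overlapped. The effectors were low, with Rps6kb1 at 12.6, 15.5 and 18.1 against 14.2, 15.5 and 16.0 CPM, Eif4ebp1 at 5.06, 10.0 and 8.95 against 11.2, 11.3 and 9.73, and Eif4ebp2 at 17.7, 10.0 and 19.0 against 16.5, 16.7 and 16.4. WT mouse 1 held only 4 to 61 reads per gene, so that small changes were not detectable at this depth. The 3 Paneth cell markers in the reference summed to 6582 to 7235 CPM in WT and 3487 to 4767 in Rptor fl/fl mice and the 3 erythroid markers to 81.8 to 96.3 and 452 to 552. The sums of enterocytes (given above), goblet cells (7452 to 7657 against 9766 to 10541), fibroblasts (870 to 933 against 1102 to 1307) and endothelium (47.0 to 63.2 against 69.4 to 72.8) were higher in each Rptor fl/fl mouse and that of stem cells lower, and the part of cell composition in the values of the mTOR genes was not tested.

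**Figure D4:**
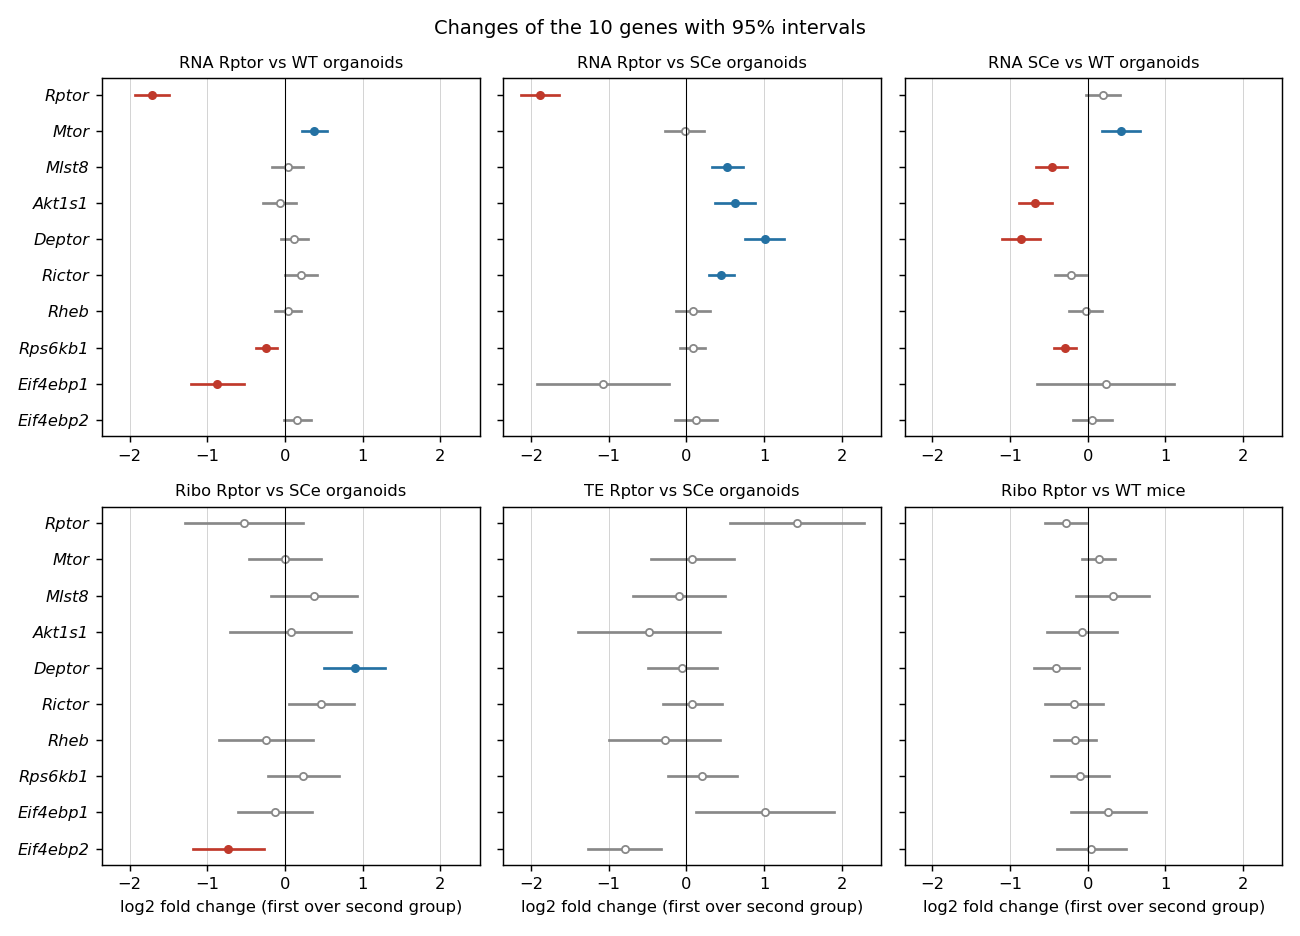
Log2 fold changes of the 10 genes (vertical axis) with 95% intervals in the 6 comparisons (1 panel each), first group over second group on the horizontal axis, filled where the edgeR adjusted p passed the threshold. The Rptor interval ran from -1.93 to -1.50 in RNA-seq against WT, from -1.29 to 0.23 in organoid footprints and from -0.55 to -0.02 in mice.

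The read ratio of Rptor to Mtor in the same library needs no scaling of library sizes, and it follows the defining subunit of mTORC1 relative to the kinase. It was 0.766 and 0.758 for WT lines and 0.169 and 0.188 for Rptor fl/fl lines, and 0.638, 0.665 and 0.648 in SCe libraries of RNA-seq. In organoid footprints it was 0.241, 0.263 and 0.230 in Rptor fl/fl and 0.301, 0.544 and 0.25 in SCe libraries, which overlapped. In mice it was 0.541, 0.530 and 0.600 in WT and 0.414, 0.375 and 0.467 in Rptor fl/fl libraries, which did not. The corresponding ratio of Rictor to Mtor, for mTORC2, was 1.06 ± 0.05 in WT (SD, n = 2), 0.945 ± 0.01 in Rptor fl/fl (n = 2) and 0.683 ± 0.06 in SCe organoids (n = 3) of RNA-seq. It was 0.540 ± 0.06 and 0.412 ± 0.12 in Rptor fl/fl and SCe footprints and 0.355 ± 0.07 and 0.304 ± 0.09 in WT and Rptor fl/fl mice (n = 3 each). In RNA-seq the Rptor ratio was thus lowest in Rptor fl/fl lines and the Rictor ratio in SCe libraries. Mtor RNA was itself higher than in WT in Rptor fl/fl (log2 fold change 0.38) and SCe organoids (0.43), so these ratios also carry its change. Rictor RNA did not pass the test between SCe and WT organoids (-0.22 ± 0.08). Both ratios are described without a test.

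**Figure D5:**
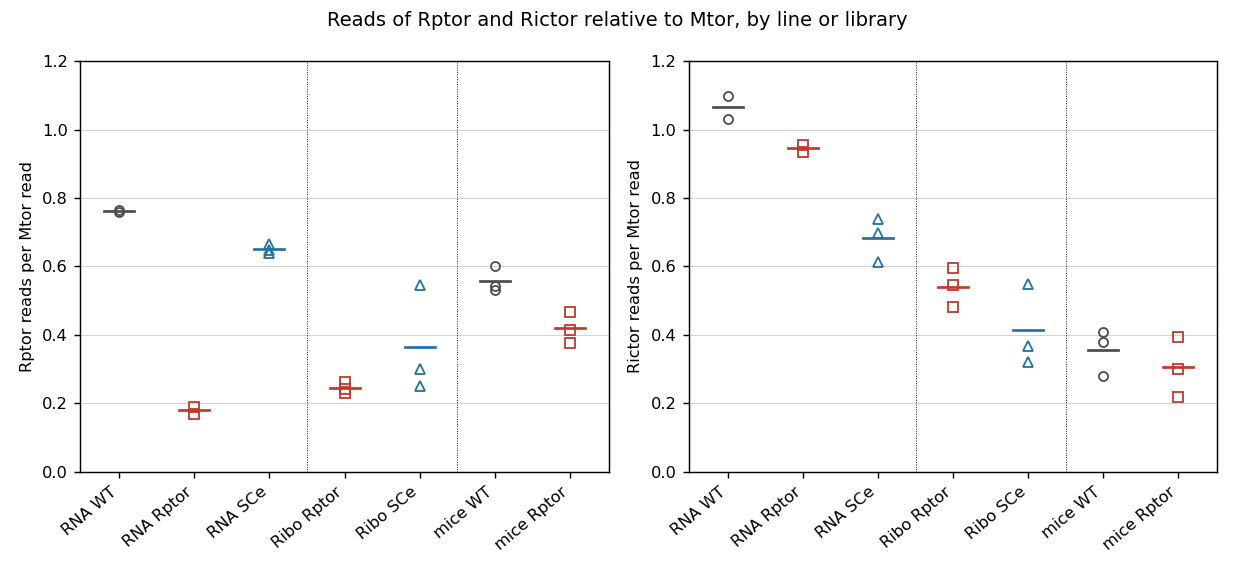
Reads of Rptor (left) and Rictor (right) per read of Mtor (vertical axes, from 0) in each line or library of the 7 groups (horizontal axes), with bars at the means. The Rptor ratio was 0.169 to 0.188 in RNA-seq of Rptor fl/fl organoids and 0.638 to 0.766 in the other RNA-seq samples, while in mice it was 0.375 to 0.467 in Rptor fl/fl and 0.530 to 0.600 in WT.

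In RNA most of the other members were read mainly from a single transcript. Rictor, Rheb and Eif4ebp1 have 1 transcript each in the references. Mtor-202, the full-length form of 8564 bases, took 97.5% or more of Mtor RNA reads in every line and library, and the short Mtor-201 of 1003 bases the rest. In organoid footprints Mtor-201 was given 13.4% to 21.7% in Rptor fl/fl and 7.44% to 24.7% in SCe libraries, and in mice at most 5.42%. Deptor-202 took 99.6% or more of Deptor RNA reads and 95.8% or more of the organoid footprints, whereas in mouse footprints the reads were divided as given above. Rps6kb1-207 took 94.5% to 96.6% of Rps6kb1 RNA reads. The longer Eif4ebp2 transcript (5784 bases) took 94.0% to 97.3% of Eif4ebp2 RNA reads. In the mouse Ribo-seq reference its entry has 509 bases, and that of the shorter transcript (1422 bases) has 476. To the latter 71.8% to 100% of the mouse footprints were assigned, on 14.0 to 117 reads. The organoid reference, from which the authors removed duplicated sequences, holds 1 Eif4ebp2 entry. No change of isoform is therefore read from these footprints. Akt1s1 was divided, with 51.1% to 56.6% of its reads in WT and 60.5% to 64.0% in Rptor fl/fl lines on a transcript of 1592 bases, and Mlst8 had 52.9% to 71.3% of its RNA reads on a transcript of 3358 bases. For Akt1s1 and Mlst8 the sum over transcripts is therefore the firmer value.

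The Rag GTPases recruit mTORC1 to the lysosome when amino acids are present, and Ragulator anchors them there. Of the 13 genes of that list, which also holds the folliculin complex acting on RagC and RagD, 6 were higher and 1 was lower in RNA of Rptor fl/fl against WT organoids (median log2 fold change 0.19, against -0.00 over all genes), where 11.6% and 11.0% of all genes were called. Flcn, which encodes folliculin, rose by 1.00 ± 0.07 (edgeR adjusted p = 0.00891), and its partners Fnip2 by 1.06 ± 0.09 (edgeR adjusted p = 0.00983) and Fnip1 by 0.56 ± 0.05 (edgeR adjusted p = 0.0107). Flcn was at 27.1 ± 0.47 CPM in WT and 54.3 ± 3.01 in Rptor fl/fl lines (SD, n = 2 each). Against SCe organoids 3 of these genes were higher and 4 were lower, beside 21.0% and 21.8% of all genes, led by Flcn (1.70 ± 0.12), Rragc, which encodes RagC (0.77 ± 0.08), and the Ragulator gene Lamtor5 (-0.61 ± 0.07). In SCe against WT organoids, where 22.4% and 19.9% of all genes were called, 5 of 12 were higher and 3 lower, among them Rragd (0.96 ± 0.13) and the lysosomal arginine transporter and sensor gene Slc38a9 (0.69 ± 0.09).

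The GATOR complexes, KICSTOR and the amino acid sensors signal amino acid shortage to the Rag GTPases. In RNA of Rptor fl/fl against WT organoids 3 of 18 tested genes were higher and 7 lower (median -0.16), beside 11.6% and 11.0% of all genes. Castor2, of the arginine sensor family, was lower by -2.13 ± 0.19, Sesn3, of the sestrin family, by -1.51 ± 0.13, and Sec13, a GATOR2 subunit that also belongs to the COPII coat, by -0.80 ± 0.06 (edgeR adjusted p = 0.0106, 0.0104 and 0.00903). Against SCe organoids 1 was higher and 6 were lower (21.0% and 21.8% of all genes), again with Castor2 (-3.41 ± 0.25) and Sesn3 (-2.22 ± 0.15), and with Castor1 (-3.39 ± 0.31). In SCe against WT organoids 6 were higher and 2 lower (22.4% and 19.9% of all genes), with BC048403 (1.15 ± 0.09), Castor1 (2.16 ± 0.29) and the KICSTOR gene Itfg2 (0.83 ± 0.12) leading. SCe organoids thus had the highest RNA of Castor1 and Sesn3 among the RNA-seq groups, at 3.68 and 126 CPM on average.

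The TSC complex switches Rheb off and is itself controlled by growth factor signalling. Of 17 tested genes of that list 4 were higher and 1 was lower in RNA of Rptor fl/fl against WT organoids (median 0.03), beside 11.6% and 11.0% of all genes. Ddit4, a stress-induced inhibitor of mTORC1 that acts through TSC, was lower by -1.73 ± 0.09 (136 ± 14.5 against 41.1 ± 0.67 CPM, edgeR adjusted p = 0.00565). Irs1, an adaptor of the insulin receptor, was higher by 4.45 ± 0.47 from a low level (0.494 ± 0.129 against 10.9 ± 5.39 CPM, edgeR adjusted p = 0.0116), and Ddit4l by 2.42 ± 0.40 (edgeR adjusted p = 0.0218). Against SCe organoids 5 of 18 were higher and 3 lower, with Irs2 (1.41 ± 0.16) and Pik3ca (0.73 ± 0.09) among those higher, and in SCe against WT 6 of 18 were higher and 4 lower. The shares over all genes were 21.0% and 21.8% and then 22.4% and 19.9%.

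Among 11 other mTORC2 subunits, assembly factors and substrates, 1 was higher and 0 were lower in RNA of Rptor fl/fl against WT organoids by edgeR (median 0.27), beside 11.6% and 11.0% of all genes. This was Prkca, a protein kinase C and mTORC2 substrate (0.33 ± 0.06, edgeR adjusted p = 0.0229). Against SCe organoids 3 were higher and 2 lower, with the kinases Sgk3 (-1.54 ± 0.13) and Sgk1 (-2.09 ± 0.39) among the latter, and in SCe against WT 3 were higher and 1 was lower, beside 21.0% and 21.8% and then 22.4% and 19.9% of all genes. Among 21 other mTORC1 effectors, 1 was higher and 4 were lower in Rptor fl/fl against WT organoids (median -0.05). They included Pdcd4, an inhibitor of translation initiation (-0.65 ± 0.10, edgeR adjusted p = 0.0207), Eif4e, the cap-binding protein that 4E-BPs hold (-0.36 ± 0.07, edgeR adjusted p = 0.0274), and Eef2k, the kinase that slows elongation (0.39 ± 0.07, edgeR adjusted p = 0.0257). Against SCe organoids 5 of the 21 were higher and 2 lower, led by Eef2k (1.24 ± 0.09), and in SCe against WT 1 was higher and 7 were lower, led by Pdcd4 (-1.26 ± 0.10), against the same shares over all genes.

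In organoid footprints the same lists gave fewer calls, as did all genes, of which 6.63% were higher and 9.84% lower. Rragd (-1.81 ± 0.35) was the 1 lower gene of 12 on the Rag list, whose median was -0.57 against -0.02 over all genes, and BC048403 (-1.37 ± 0.30), Sesn3 (-0.94 ± 0.22) and Castor2 (-2.46 ± 0.69) were the 3 lower genes of 17 on the sensor list. None of 15 TSC genes passed, and of 9 mTORC2 genes Sgk3 (-3.29 ± 0.88) was lower. Some of these calls rest on few reads. Castor2 had 2 to 19 reads in Rptor fl/fl and 11 to 18 in SCe libraries (edgeR adjusted p = 0.0424). Sgk3 had 0 to 10 and 6 to 59 reads (edgeR adjusted p = 0.0360), and Rragd 16 to 32 and 15.0 to 58.3. Of 19 effectors 4 were higher, with Pdcd4 (1.46 ± 0.21), the stress response factor Atf4 (1.49 ± 0.28) and the autophagy gene Atg13 (1.65 ± 0.31) leading. In translation efficiency, where 1.12% and 1.81% of all genes were called, Flcn was lower (-1.16 ± 0.26, edgeR adjusted p = 0.0417) and Sesn3 higher (1.34 ± 0.25, edgeR adjusted p = 0.0224), and no gene of the other lists passed. In mice, where 7.47% and 5.97% of all genes were called, Sesn1 (0.72 ± 0.12, edgeR adjusted p = 0.000666) and Sec13 (0.36 ± 0.08) were higher on the sensor list of 16, Lamtor1 (0.68 ± 0.17) on the Rag list, Irs2 (0.40 ± 0.11) on the TSC list, and Sgk1 (0.42 ± 0.08) and Sgk2 (0.98 ± 0.25) on the mTORC2 list. Of 20 effectors in mice 2 were higher, including Hif1a (0.33 ± 0.09), and 3 were lower, including the translation factors Eif4b (-0.30 ± 0.09) and Larp1 (-0.36 ± 0.11).

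Over the 7 RNA-seq lines and libraries, the genes whose log2(CPM + 1) followed Rptor most closely were Zswim5, Dnajb11, Urah, Zdhhc2 and E330009J07Rik, each with a Pearson r of 0.99 or more. They share the libraries and their low level in the Rptor fl/fl lines, so this is a description of 7 points in 3 groups. Dnajb11, a chaperone cofactor of the endoplasmic reticulum, was at 102 and 102 CPM in WT, 68.5 and 69.4 in Rptor fl/fl and at most 104 in SCe samples. Urah was at 9.20 and 8.89 CPM in WT, 0.93 and 0.93 in Rptor fl/fl and 11.7 to 13.3 in SCe samples. Both were thus lowest in the Rptor fl/fl lines.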

How the data were processed

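Adapters were cut from Ribo-seq reads (cutadapt 1.18) and rRNA fragments discarded by the authors, who then counted every library with Salmon 1.1.0 on protein-coding sequences of GENCODE vM21 (mm10). The deposited files give an estimated count and a TPM for each sequence, as the authors' Salmon run computed them. RNA-seq was counted on 66244 transcripts, organoid Ribo-seq on 59120 coding sequences (beside 44641 entries for 5′ regions, which held 2.97% to 6.98% of the footprints and were left out), and mouse Ribo-seq on 65862 sequences that also hold the 5′ region. The mouse values thus contain footprints of 5′ regions, unlike the organoid values. A further table held the authors' own comparisons of translation efficiency (p-values, log2 changes) and was not used.

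Estimated counts were summed per gene and over the technical libraries of a line, and rounded. Genes were filtered with filterByExpr, scaled by TMM and tested with the quasi-likelihood test of edgeR 4.0.16 in R 4.3.3, each comparison on its own groups, with Benjamini-Hochberg adjustment over all genes tested and a threshold of 0.05. Fold changes are log2 values with the SE from the model. The steps were tested on simulated data. Alternatives were DESeq2 1.42.0, RLE factors, no count filter, a replicate block, 1 transcript per gene, an effective length offset, technical libraries as replicates, all RNA-seq groups in 1 fit, and leaving out each line or library. Intervals cover the spread between samples, and the low footprint counts limit precision.

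The genes and the pathway lists were chosen with earlier results of these data known. All 10 members are given in every comparison. From each pathway list the genes named are up to 3 with the smallest adjusted p among those past the threshold (1 such gene is not reported here), and the genes most like Rptor are the 5 with the highest r of log2(CPM + 1). Of the sensor list 18 of 21 symbols were in the references, the others being second symbols. Amino acid sequences were not used here.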

Additional observations from a re-analysis of the deposited data

How the results depend on the processing

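Of the log2 fold changes of single genes under the alternatives, 708 kept their direction and side of the threshold, 39 lost and 22 gained a call, and 31 changed sign, none of the latter called either way. Leaving out a line that left 1 sample in an arm assumed that this sample varies like the other group.

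The number of the 10 genes called between Rptor fl/fl and WT organoids in RNA-seq was 4, and it was 7 with technical libraries as replicates, 1 with all RNA-seq groups in 1 fit, and 1 to 2 when a line was left out. Between Rptor fl/fl and SCe it was 5, with 3 under the replicate block and 3 to 6 when a sample was left out, and between SCe and WT it was 5, with 2 under the block and 2 to 7. In organoid footprints it was 2, with 1 each under no count filter, under the block and with 1 transcript per gene, and 0 to 2 when a library was left out. In translation efficiency it was 0, with 2 by DESeq2, 2 with technical libraries as replicates, and 0 to 2. In mice it was 0 under every alternative. The cause of these shifts was not tested. With CPM per annotated kilobase 5 genes kept their place in the order of Rptor fl/fl organoid footprints and 3 in each mouse group.

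The log2 fold changes that changed sign were the following. In RNA of Rptor fl/fl against WT, Mlst8 was -0.0063 with the length offset and -0.0145 to 0.0895 when a line was left out, Akt1s1 was 0.15 with 1 transcript per gene and -0.13 to 0.0059, and Rheb was -0.0084 to 0.0958. Leaving out a sample gave -0.0746 to 0.0474 for Mtor between Rptor fl/fl and SCe, and -0.0829 to 0.0039 for Rheb and -0.0250 to 0.11 for Eif4ebp2 between SCe and WT, where Eif4ebp1 was -0.0283 under the block. In organoid footprints Mtor was 0.0356 with no count filter, 0.0300 under the block, 0.0289 with the length offset and -0.20 to 0.18 when a library was left out, Akt1s1 was -0.31 to 0.41 and Eif4ebp1 -0.23 to 0.0883. In translation efficiency Mtor was -0.12 to 0.26, Deptor -0.14 to 0.11 and Mlst8 -0.29 to 0.0677, and with 1 transcript per gene Mlst8 was 0.91 and Akt1s1 0.20. In mice Akt1s1 was -0.27 to 0.11, Rps6kb1 -0.15 to 0.0746 and Eif4ebp2 -0.18 to 0.42, and Deptor was 0.22 with 1 transcript per gene.

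Over all genes, 1637 were higher and 1558 lower between Rptor fl/fl and WT organoids in RNA-seq, against 3566 and 3642 with technical libraries as replicates, 821 and 723 with all groups in 1 fit, and 889 and 782 with 1 transcript per gene. Under the replicate block 1637 and 1558 became 2359 and 2392, 3164 and 3287 became 1690 and 1755 between Rptor fl/fl and SCe, and 3343 and 2966 became 1753 and 1401 between SCe and WT. In organoid footprints 717 and 1064 became 516 and 712 under the block and 219 and 289 with 1 transcript per gene. In translation efficiency 120 and 195 became 501 and 705 by DESeq2, 542 and 770 with technical libraries as replicates, 2 and 2 under the block, and 105 and 82 with 1 transcript per gene. In mice 860 and 687 became 731 and 574 under the block, 629 and 415 by DESeq2, and 212 and 134 with 1 transcript per gene. The replicate numbers of the labels are not said to mark a shared animal or day. Deviations of samples with the same number correlated at 0.22 to 0.42 in RNA-seq, and those of samples with different numbers at -0.42 to -0.22. Only 2 numbers are shared there, so this check cannot decide whether the samples are pairs. In the Ribo-seq contrasts samples with the same number correlated at -0.05 to 0.03. The main fit used no pairs because the methods name no pairing in the study's own fits. The methods do mention Rptor fl/fl animals induced in vitro so as to obtain paired samples. Which libraries came from them is not said. Counts of 19 reads (organoids) and 4 reads (mice) for the lowest genes limit what footprints can show.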

Other observations

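The organoid Ribo-seq reference also holds entries for the 5′ region of transcripts, which were kept apart from the coding sequences. Eif4ebp2 had 32.0, 43.9 and 31.8 footprints there in Rptor fl/fl and 9.86, 9 and 8 in SCe libraries, or 5.34, 6.88 and 3.85 and 4.98, 8.14 and 1.89 CPM (here of all reads of the library, without TMM factors). On the same scale Rheb had 7.67, 5.31 and 4.23 there in Rptor fl/fl and 18.2, 9.94 and 4.48 in SCe libraries. Rptor had 2.84, 0.63 and 1.21 in Rptor fl/fl and 1.51, 7.23 and 3.77 in SCe libraries, from at most 17 reads. Akt1s1 had 41, 23 and 9 reads in Rptor fl/fl and 5, 2 and 4 in SCe libraries. On that scale the groups overlapped for each of these genes, so no difference of 5′ footprints was detectable at this depth.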
